A study of Rattus norvegicus with 24 samples.

Results

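The Fos and Jun family supplies the subunits of AP-1, a transcription factor that works as a dimer. Its 7 genes in the rat are Fos, Fosb, Fosl1, Fosl2, Jun, Junb and Jund, and they were followed in the supraoptic nucleus of rats deprived of water. All probe sets whose single symbol in the platform annotation was one of these genes were taken, which gave 13 probe sets of the 31099 on the array. Fos and Fosl1 were the 2 members whose signal rose with dehydration in both sexes, about 3.8-fold each in males and 3.67-fold and 2.72-fold in females. Jun and Jund were slightly higher and missed the test's threshold, Junb was tested in males alone and missed it there, and Fosb and Fosl2 gave signals too low to be tested.

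Proteins of the Fos side (Fos, Fosb, Fosl1 and Fosl2) do not form stable dimers with each other and bind DNA together with a Jun protein. Jun proteins can also pair among themselves. In neurons Fos is an immediate early gene, transcribed within minutes of strong excitation and usually switched off again soon after, and Fos labelling is widely used to mark activated neurons. The supraoptic nucleus holds the magnocellular neurons, which make vasopressin and oxytocin, send them to the posterior pituitary and fire more when the blood becomes more concentrated.

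Each array was hybridised with RNA from a pool of 5 Sprague Dawley rats. The male set had 5 arrays of rats dehydrated for 3 days and 5 of control rats, all 10 to 12 weeks old. In the female set there were 5 arrays of rats that went 72 hours without water while food was freely available, and 4 of euhydrated controls. The male and female sets also differed in RNA extraction, labelling and software, so that sex and these steps cannot be told apart. The values are array signals scaled to a trimmed mean near 100, and the level of a probe set is compared only with itself within a set. A log2 fold change is dehydrated over control on log2(signal + 32) after rescaling, tested with limma and called at an adjusted p under 0.05. The added 32 shrinks folds, and more so at low signals. Pools of a group may count as technical as well as biological replicates according to the design text, so p-values measure the spread between these pools.

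Avp and Oxt, the vasopressin and oxytocin genes and the defining markers of the tissue, gave signals of 3644 to 7666 and 3001 to 6698 on 18 of the 19 arrays with values. Array 5 of the dehydrated females stood apart, with 50.6 for Avp and 26.0 for Oxt, and its median signal of 64.4 was above the 36.1 to 46.5 of the others. Summed markers of choroid plexus and ependyma gave 10252 on it, against at most 1712 on any other array, and blood markers 11211 against 2485. Oligodendrocyte markers gave 22729 against at most 12519.5, endothelium markers 8702 against 2753, and microglia markers 3181 against 1398. Sums for astrocytes and for mural cells and meninges lay within the range of the other arrays. Array 5 went against its tissue label and was left out of the female values. How far its makeup sets its other signals was not tested. Its signals for the members, and for the genes of the other lists called in females, are given with those results. In bulk RNA, fewer cells of a type and less RNA per cell cannot be told apart.

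Fos was the clearest case. Its main probe set (1375043_at) gave 285.2, 307.6, 289.8, 307.3 and 334.1 on the dehydrated male arrays, against 143.7, 69.1, 61.9, 69.6 and 53.8 on the control male arrays. Every dehydrated male pool was above every control pool, and the highest control, array 1, was between the other controls and the dehydrated pools. The dehydrated female arrays gave 301, 233, 222 and 417, against 101, 81.4, 61.6 and 54.6 in control females. These groups did not overlap either, and the lowest dehydrated pool was above the highest control pool.

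The log2 fold change of Fos was 1.94 ± 0.18 (SE, adjusted p = 7.38e-06) in males and 1.88 ± 0.22 (adjusted p = 0.0012) in females, or 3.82-fold and 3.67-fold. The male effect minus the female effect was 0.06 ± 0.31 (adjusted p = 0.977), with a 95% interval of -0.58 to 0.69, and its sign turned under quantile normalization (-0.04). Fos passed in all 10 fits that left out 1 male array and in all 8 that left out 1 female array. On array 5 of the dehydrated females the Fos signal was 53.5, at the level of the controls. With that array included the female log2 fold change was 1.42 ± 0.47 (adjusted p = 0.445), and over the other alternatives Fos passed in both sets.

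These calls stand against how often any probe set was called. Of the 21729 probe sets tested per set, 8.32% were called higher and 9.38% lower in males, and 1.77% were called higher and 1.19% lower in females. Of the 20492 tested in both sets, 1.57% were called higher in both. With array 5 included, 0.0046% of probe sets, a single probe set that was none of the members, was called higher in females. At an unadjusted p under 0.05 the shares were 31.4% in males and 19% in females, and 8.21% in females with array 5. The few arrays limit precision. The median standard error over these probe sets was 0.12 in males and 0.17 in females on the log2 scale.

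A further probe set for Fos (1371283_at) did not follow the main one. Its signals were low, at 7.2 to 13.4 on dehydrated male arrays and 1.9 to 10.4 on control male arrays, which was below the filter on level in that set. In females it passed the filter, with 11.8 to 22.0 in dehydrated and 21.6 to 37.0 in control rats, and its log2 fold change was -0.56 ± 0.24 (adjusted p = 0.238). Array 5 gave 26.2 there, and including it gave -0.46 ± 0.26 (adjusted p = 0.694). The direction of Fos therefore rests on 1 of its 2 probe sets.

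Fosl1 encodes FRA1, a Fos-side protein that lacks the strong activation domain of Fos. Its probe set (1368489_at) gave 68.5, 92.7, 63.2, 92.3 and 94.8 on dehydrated male arrays, against 18.4, 14.5, 15.2, 10.5 and 28.9 on control male arrays. In females it gave 93.9, 82.9, 80.0 and 75.8 on dehydrated arrays, against 34.8, 16.6, 24.0 and 34.0 on control arrays. The lowest dehydrated pool of each set was more than double the highest control pool of that set. The log2 fold change was 1.92 ± 0.18 (adjusted p = 8.75e-06, 3.78-fold) in males and 1.44 ± 0.20 (adjusted p = 0.00372, 2.72-fold) in females.

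The Fosl1 effect in males minus that in females was 0.48 ± 0.28 (adjusted p = 0.616), with a 95% interval of -0.11 to 1.06. Leaving out each array in turn kept the call in 10 of 10 male and 8 of 8 female fits. A filter on level can favour a gene that is high in 1 group, and with no filter Fosl1 passed as well (adjusted p = 6.38e-05 in males and 0.00779 in females). Over all alternatives its adjusted p ran from 9.44e-07 to 0.000205 in males and from 0.000143 to 0.137 in females. Unlike Fos, Fosl1 was high on array 5 of the dehydrated females, at 60.3, above all female controls. Including that array gave 1.36 ± 0.22 with an unadjusted p of 6.01e-05, the 8th smallest of 21729, and an adjusted p of 0.137.

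**Figure D1:**
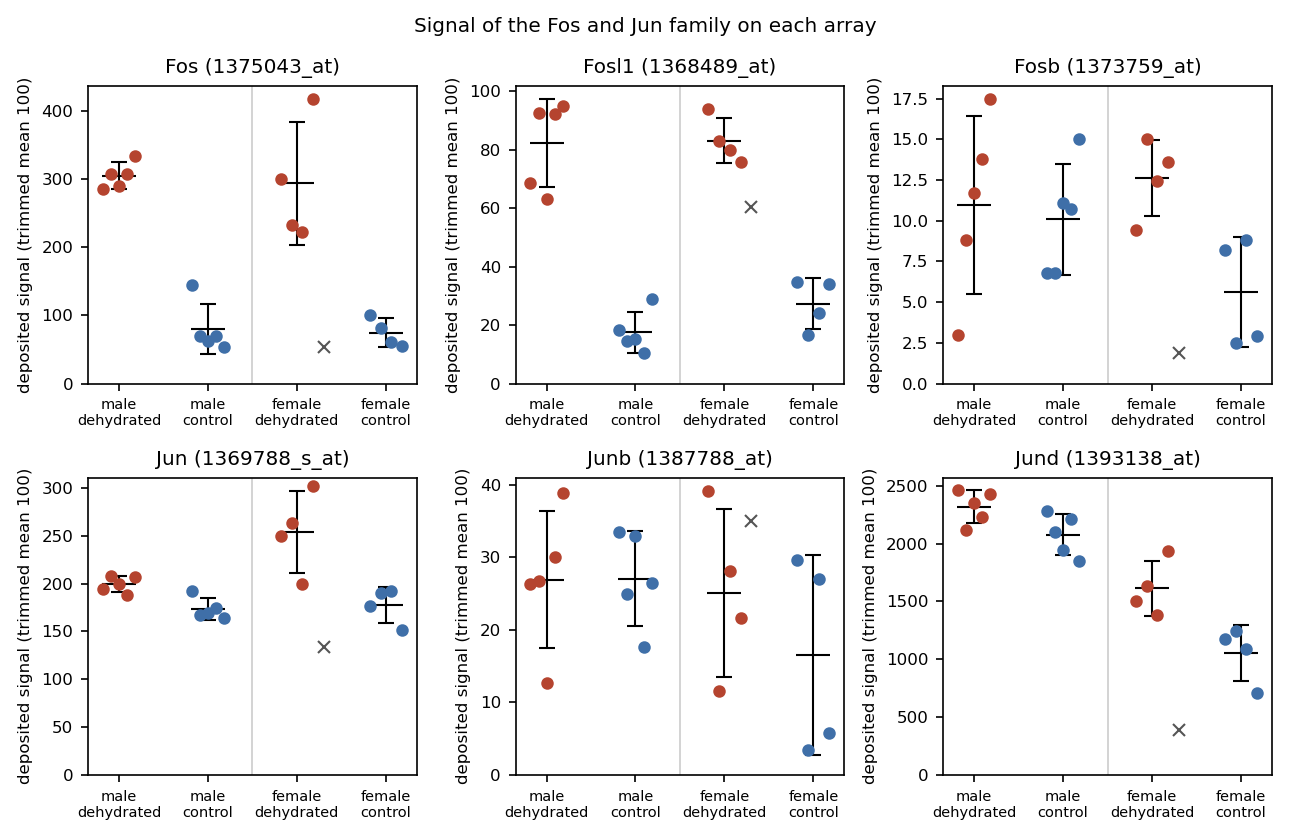
Deposited signal (y axis, from 0, trimmed mean near 100) of 6 members on each array, with dehydrated arrays in red left of control arrays in blue for males and then females. Lines and bars are the mean and SD of the arrays used, and the cross is array 5 of the dehydrated females, which was left out of both. Fos and Fosl1 did not overlap between dehydrated and control arrays in either set, while Fosb stayed at or below 17.5 and Junb at or below 39.2 on every array.

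The promoters of 5 members (Fosb, Fosl1, Fosl2, Junb and Jund) were in RefSeq's table for the GRCr8 build. Their 250 bases before the gene start were searched on both strands for the CRE (TGACGTCA), its half-site (TGACG), the AP-1 site (TGANTCA) and the CArG box. The CRE binds CREB-family factors and the CArG box binds SRF, and both motifs are known from the Fos promoter. These motifs occurred in 1.59%, 18.2%, 6.34% and 1.5% of 33469 rat promoters of the same length. The windows of Fosl1, which rose in both sets, and Jund, the member whose window held a full CRE, are shown, with CRE half-sites and the full CRE in capitals.
Fosl1 (GRCr8 chr1:212183635-212183884, plus strand): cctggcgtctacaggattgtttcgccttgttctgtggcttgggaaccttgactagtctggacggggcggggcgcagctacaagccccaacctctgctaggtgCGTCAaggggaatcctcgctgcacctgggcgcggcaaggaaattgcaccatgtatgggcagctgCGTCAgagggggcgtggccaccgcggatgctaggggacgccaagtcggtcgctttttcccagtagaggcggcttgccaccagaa
Jund (GRCr8 chr16:18769772-18770021, minus strand): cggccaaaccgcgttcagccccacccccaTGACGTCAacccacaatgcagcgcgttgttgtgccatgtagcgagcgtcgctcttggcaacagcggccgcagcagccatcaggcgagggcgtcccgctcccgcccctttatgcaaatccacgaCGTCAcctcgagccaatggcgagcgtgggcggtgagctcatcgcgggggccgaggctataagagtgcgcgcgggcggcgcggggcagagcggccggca
Fosl1 had 2 half-sites, whose first bases lie 148 and 84 bases before the start, both on the opposite strand, so that the printed strand reads CGTCA. Jund had the CRE 221 bases before the start, which is itself 2 overlapping half-sites (221 and 218), and another half-site at 98. Junb had 1 half-site at 155, and the windows of Fosb and Fosl2 held none of the 4 motifs. A match is a description of letters and shows no binding.

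Jun encodes the classical partner of Fos and had 3 probe sets. The brightest (1369788_s_at; a name ending in s_at marks a set that can match more than 1 transcript) gave 194.3, 207.7, 199.6, 188.1 and 207.4 on dehydrated male arrays, against 192.3, 166.9, 169.2, 174.7 and 163.9 in control males. In females it gave 249.8, 263.6, 199.6 and 302.5 on dehydrated arrays, against 176.3, 190.0, 192.1 and 151.3 on control arrays. The female groups did not overlap, and in males control array 1 lay inside the dehydrated range. The log2 fold change was 0.20 ± 0.07 (adjusted p = 0.0589) in males and 0.49 ± 0.14 (adjusted p = 0.0761) in females, neither of which passed. It passed in males without control array 1 (adjusted p = 0.031) or with arrays centred on their median (adjusted p = 0.0127). In females it passed without dehydrated array 3 (adjusted p = 0.0289) or with array weights (adjusted p = 0.0234). Over all alternatives its adjusted p ran from 0.0127 to 0.208 in males and from 0.00489 to 0.758 in females. Array 5 of the dehydrated females gave 133.4, below every female control, and with it the female log2 fold change was 0.32 ± 0.22 (adjusted p = 0.758).

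The next probe set of Jun (1389528_s_at) gave 163.4, 184.0, 191.7, 179.5 and 188.5 on dehydrated male arrays, against 175.7, 194.3, 200.5, 154.1 and 137.5 on control male arrays, which overlap widely. Dehydrated female arrays gave 194.1, 195.1, 186.1 and 204.3, against 171.1, 105.3, 129.5 and 133.9 on control female arrays, without overlap. Its log2 fold change was 0.08 ± 0.10 (adjusted p = 0.611) in males and 0.53 ± 0.14 (adjusted p = 0.0625) in females. The female value passed without control array 1 (adjusted p = 0.0414), with quantile normalization (adjusted p = 0.0476) or with array weights (adjusted p = 0.0381). The female adjusted p over all alternatives ran from 0.0088 to 0.415. Array 5 gave 171.1, level with the highest female control, and including it gave 0.49 ± 0.15 (adjusted p = 0.415). The male minus female effect was -0.45 ± 0.17, with an unadjusted p of 0.0141 and an adjusted p of 0.35. The dimmest Jun probe set (1374404_at) had log2 fold changes of 0.24 ± 0.17 (adjusted p = 0.34) in males and 0.48 ± 0.23 (adjusted p = 0.286) in females, or 0.47 ± 0.24 (adjusted p = 0.651) with array 5, which gave 51.8.

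Jund encodes a Jun protein that is present in most resting cells and is little induced by stimulation. Its bright probe set (1393138_at) gave 2467, 2119, 2351, 2230.1 and 2426 on dehydrated male arrays, against 2285, 2099.7, 1943, 2209.9 and 1851 on control male arrays. The dehydrated female arrays gave 1505, 1630.1, 1382 and 1939, against 1179, 1244, 1087 and 710.5 on control female arrays. The male groups overlapped and the female groups did not. The log2 fold change was 0.16 ± 0.06 (adjusted p = 0.0876) in males and 0.63 ± 0.17 (adjusted p = 0.0756) in females. It passed in males without control array 1 (adjusted p = 0.0434) or with arrays centred on their median (adjusted p = 0.0119). In females it passed without control array 2 (adjusted p = 0.0428) or with array weights (adjusted p = 0.0287). Over all alternatives its adjusted p ran from 0.0119 to 0.458 in males and from 0.00474 to 0.922 in females. Array 5 of the dehydrated females gave 389, below every other female array, and with it the female log2 fold change was 0.23 ± 0.42 (adjusted p = 0.922). The male minus female effect was -0.47 ± 0.18, with an unadjusted p of 0.0171 and an adjusted p of 0.376. The remaining Jund probe sets (1375768_at and 1387762_s_at) gave at most 10.8 on any of the 18 arrays and were below the filter in both sets.

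No probe set of the family passed the test of the difference between the sets in limma, where 0.0322% of all probe sets did. Of the 5 members tested there by their brightest probe set, 1 had an unadjusted p under 0.05, which was Jund, against 10% of all probe sets. By position of the arrays alone, 6.82% of all tested probe sets had every dehydrated male array above every control male array, and among the members tested these were Fos (1375043_at) and Fosl1. In females the share of all probe sets was 5.31%, and the members were Fos (1375043_at), Fosl1, Jund (1393138_at) and the Jun probe sets 1369788_s_at and 1389528_s_at.

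Junb encodes a Jun protein that is a weaker activator than Jun. Its probe set (1387788_at) gave 26.3, 26.8, 12.7, 30 and 38.8 on dehydrated male arrays, against 33.5, 24.9, 32.9, 17.6 and 26.4 on control male arrays. Its male log2 fold change was -0.04 ± 0.21 (adjusted p = 0.931), and the sign turned under quantile normalization (0.03), centring on the median (0.04) and array weights (0.05), and without dehydrated array 3 (0.15), control array 1 (0.03) or control array 3 (0.03). In females it was below the filter, with 39.2, 11.6, 28.1 and 21.6 on dehydrated arrays, against 29.7, 3.45, 27.0 and 5.83 on control arrays. Both groups of females spread over more than a 3-fold range and overlapped, and array 5 gave 34.9.

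Fosb gives rise to full-length FosB and to the shorter DeltaFosB, a stable protein that accumulates in neurons under lasting stimulation. Its only probe set (1373759_at) was below the filter in both sets and was not tested. It gave 3.0, 8.8, 11.7, 13.8 and 17.5 on dehydrated male arrays, against 6.8, 6.8, 11.1, 10.7 and 15.0 on control male arrays, with wide overlap. In females it gave 9.46, 15.0, 12.5 and 13.6 on dehydrated arrays, against 8.22, 2.47, 8.82 and 2.89 on control arrays, and each of these dehydrated pools was above each control pool. Array 5 of the dehydrated females gave 1.87, below every female control. The array does not say which splice form a signal comes from here.

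Fosl2 encodes FRA2, a relative of FRA1. The signal of its probe set 1387530_a_at ran over 8.3 to 22.1 in dehydrated males and 8.2 to 24.7 in control males, and over 15.6 to 22.7 in dehydrated females (22.9 on array 5) and 5.80 to 30.1 in control females. The probe set 1383860_at gave 2.8 to 4.8 in dehydrated males and 1.2 to 1.5 in control males, which do not overlap, and 1.86 to 5.84 in dehydrated females (8.34 on array 5) and 2.49 to 6.39 in control females, which do. Both were below the filter in both sets, so whether Fosl2 mRNA changed was not measurable here.

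**Figure D2:**
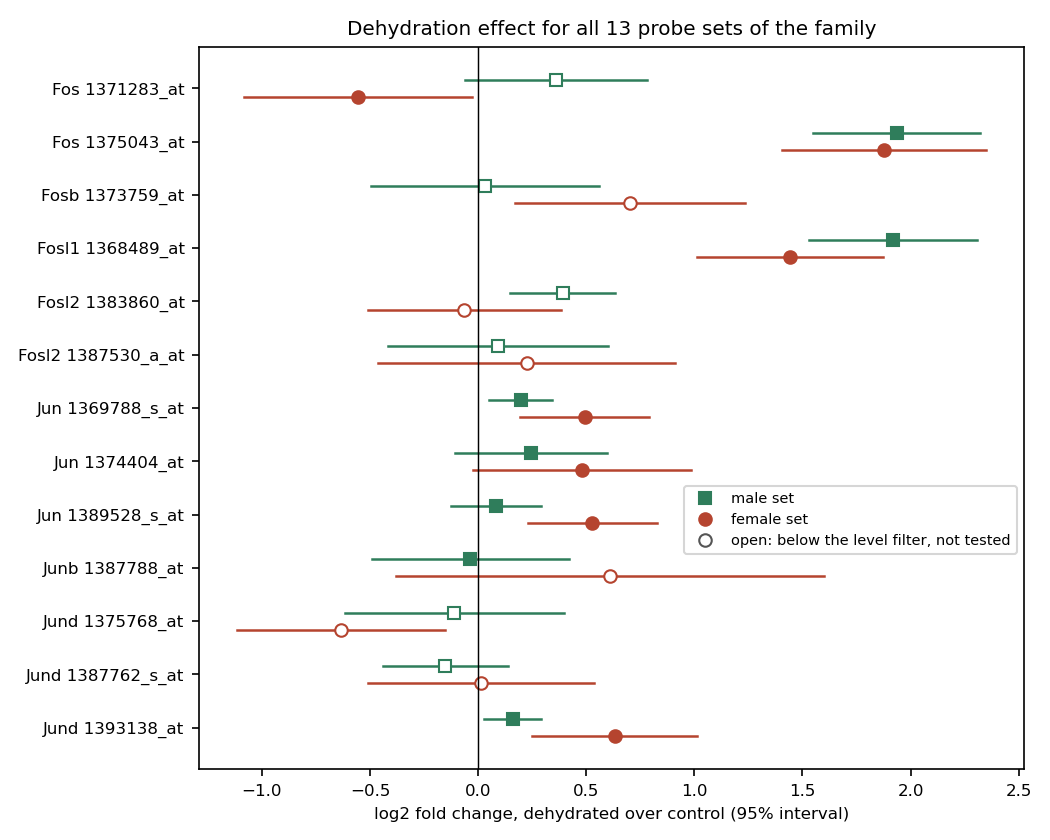
Log2 fold change of each of the 13 probe sets (x axis, dehydrated over control, with 95% interval), males as squares above females as circles. Filled symbols were tested and open symbols were below the filter on level; Fos 1375043_at at 1.94 and 1.88 and Fosl1 at 1.92 and 1.44 lie far to the right of the rest.

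Some other genes of the pathway were called as well, with falls in males at about the share of all probe sets. Among kinases and factors known to act on Fos and Jun genes or proteins, 4 of 22 rose and 2 fell in males, and 2 of 21 rose and none fell in females. Over all probe sets tested, 8.32% rose and 9.38% fell in males, and 1.77% rose and 1.19% fell in females. The median log2 fold change of the list was 0.01 in males and 0.02 in females, against -0.04 and -0.03 over all probe sets tested. Crem, which can produce the cAMP-inducible repressor ICER, averaged 219.7 ± 36.0 in dehydrated and 120.0 ± 10.3 in control males (SD, n = 5 each), and 208 ± 29.7 in dehydrated and 123 ± 6.53 in control females (SD, n = 4 each). Its log2 fold change was 0.83 ± 0.11 (adjusted p = 0.00014) in males and 0.71 ± 0.12 (adjusted p = 0.0112) in females. Elk3, an ETS factor that joins SRF at serum response elements, rose by 0.46 ± 0.09 in males (adjusted p = 0.00254) and 0.64 ± 0.12 in females (adjusted p = 0.015).

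Mapk7, the kinase ERK5, rose in males by 0.92 ± 0.18 (adjusted p = 0.00299). Map2k1, the kinase MEK1 upstream of ERK, rose in males by 0.19 ± 0.05 (adjusted p = 0.0236). The falls in males were Rps6ka5, the kinase MSK1, at -0.52 ± 0.13 (adjusted p = 0.0119), and the factor Mef2a at -0.26 ± 0.08 (adjusted p = 0.0262). No gene of this list passed the test of the difference between the sets in limma, where 3 of 21 had an unadjusted p under 0.05, against 10% of all probe sets. In females Map2k1 was at 0.20 ± 0.10 (adjusted p = 0.321), Rps6ka5 at -0.33 ± 0.12 (adjusted p = 0.168) and Mef2a at -0.06 ± 0.12 (adjusted p = 0.826), and Mapk7 was below the filter.

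Of 18 other bZIP factors that pair or compete with Fos and Jun proteins, 13 had a probe set. Only 6 were tested in males and 7 in females. None was called higher, against 8.32% of all probe sets in males and 1.77% in females. So few genes cannot set the list apart from those shares. Of 6 tested in males in limma, 3 had an unadjusted p under 0.05, against 31.4% of all probe sets. After adjustment 2 fell, against 9.38% of all probe sets. These were Maf at -0.77 ± 0.14 (adjusted p = 0.00201) and Nfe2l2, the oxidative stress factor NRF2, at -0.40 ± 0.11 (adjusted p = 0.0182). Of 7 tested in females none was called in limma, where 1.77% of all probe sets were called higher and 1.19% lower. An unadjusted p under 0.05 was found for 2 of the 7, against 19% of all probe sets. In females Maf was at -0.40 ± 0.11 (adjusted p = 0.0689) and Nfe2l2 at -0.31 ± 0.12 (adjusted p = 0.179). Maf signal averaged 172 ± 33.3 in dehydrated and 298 ± 55.0 in control males (SD, n = 5 each). The median log2 fold change of the list was -0.02 in males and -0.23 in females.

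Most other immediate early genes did not pass beside Fos and Fosl1. In males 5 of 22 rose and 2 fell, and in females 2 of 21 rose and none fell, with medians of 0.22 and 0.27. The shares of all probe sets were 8.32% higher and 9.38% lower in males, and 1.77% higher and 1.19% lower in females. Nr4a1, the orphan nuclear receptor Nur77, gave 117.8, 100.3, 131.0, 119.9 and 147.3 on dehydrated male arrays, against 58.8, 56.5, 72.8, 39.1 and 63.6 on control male arrays. In females it gave 99.3, 99.6, 121 and 127 on dehydrated arrays, against 57.6, 58.9, 58.5 and 44.5 on control arrays. The groups did not overlap in either set. Its log2 fold change was 1.02 ± 0.14 (adjusted p = 0.000185) in males and 0.95 ± 0.14 (adjusted p = 0.00608) in females, below that of Fos in both sets.

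Dusp6, a phosphatase that switches off ERK, rose by 0.46 ± 0.11 in males (adjusted p = 0.0129) and 1.10 ± 0.18 in females (adjusted p = 0.00808). Myc rose by 0.56 ± 0.11 (adjusted p = 0.00347) and the nuclear receptor Nr4a3 by 0.61 ± 0.17 (adjusted p = 0.0253) in males. In females Myc was at 0.67 ± 0.17 (adjusted p = 0.0629), with 61.9 to 79.0 in dehydrated against 28.2 to 48.2 in control rats and no overlap, and Nr4a3 was at 0.09 ± 0.21 (adjusted p = 0.86). Array 5 of the dehydrated females gave 1.62 for Myc, and including it gave 0.03 ± 0.60 (adjusted p = 0.993). Ier3 at -0.97 ± 0.24 (adjusted p = 0.0108) and Ier5 at -0.47 ± 0.11 (adjusted p = 0.00839), both immediate early response genes, fell in males. Their female values were -0.34 ± 0.18 (adjusted p = 0.354) for Ier3 and -0.13 ± 0.13 (adjusted p = 0.631) for Ier5. Egr1, a zinc finger factor often measured together with Fos, was chosen after its values were seen: it did not pass, at 0.21 ± 0.11 (adjusted p = 0.228) in males and 0.62 ± 0.17 (adjusted p = 0.0717) in females. No gene of this list passed the test of the difference between the sets in limma, where 1 of 22, Dusp6, had an unadjusted p under 0.05, against 10% of all probe sets.

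**Figure D3:**
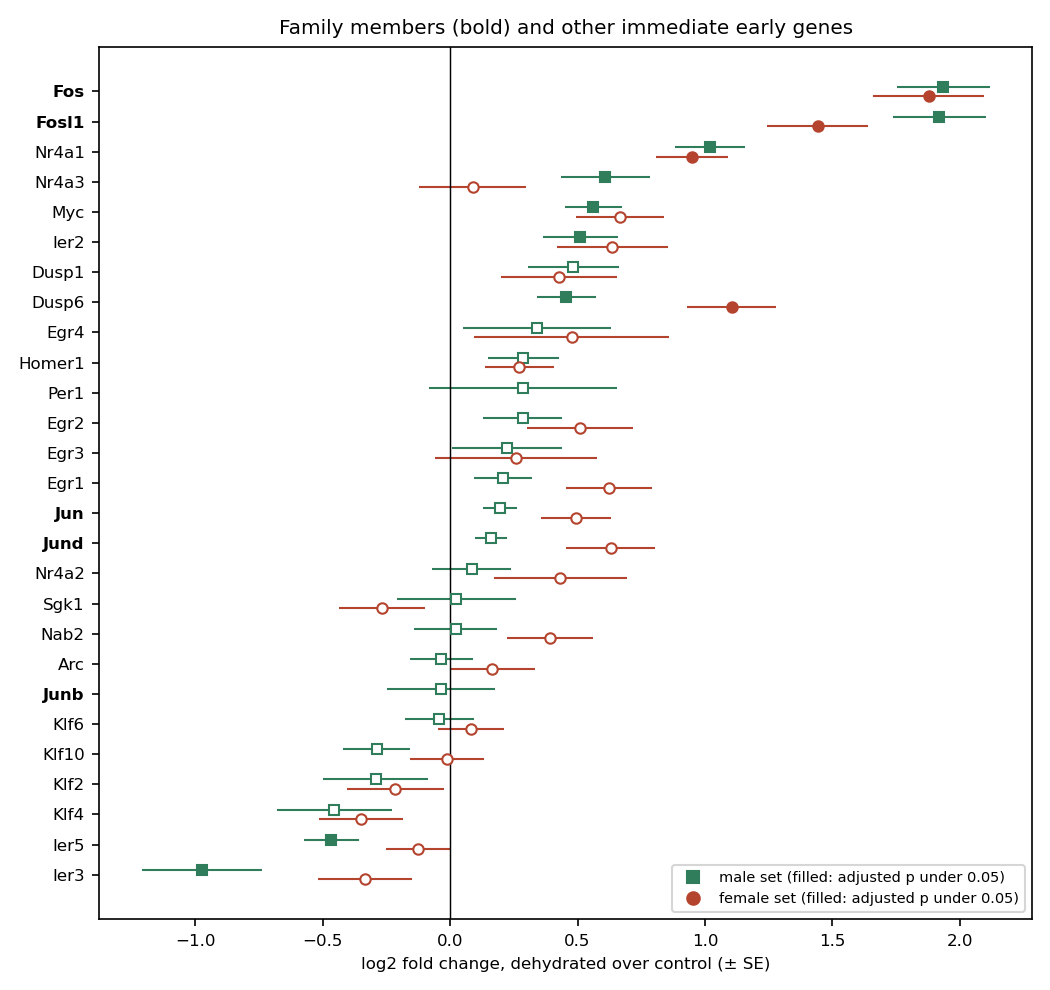
Log2 fold change (x axis, dehydrated over control, ± SE) of family members in bold and of other immediate early genes, ordered by the male value, males as squares above females as circles, filled where the adjusted p was under 0.05. Fos and Fosl1 head the order and Nr4a1 follows at 1.02 and 0.95.

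Genes described as AP-1 targets in other tissues were mixed. In males 3 of 17 rose and 2 fell, and in females 3 of 17 rose and none fell, with medians of -0.19 and 0.11. The shares of all probe sets were 8.32% higher and 9.38% lower in males, and 1.77% higher and 1.19% lower in females. Th, tyrosine hydroxylase, averaged 522 ± 86.5 in dehydrated and 179.6 ± 31.7 in control males (SD, n = 5 each), and 414 ± 44.0 in dehydrated and 101 ± 19.3 in control females (SD, n = 4 each). Its log2 fold change was 1.51 ± 0.12 (adjusted p = 2.32e-06) in males and 1.98 ± 0.14 (adjusted p = 1.82e-05) in females. Pdyn, the dynorphin precursor, rose by 0.87 ± 0.12 (adjusted p = 0.000198) in males and 0.74 ± 0.12 (adjusted p = 0.00753) in females.

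Plaur, the urokinase receptor, rose in females by 2.27 ± 0.33 (adjusted p = 0.00541), with 31.9 to 76.9 in dehydrated against 3.18 to 16.5 in control rats. It was below the filter in males, with 13 to 38.5 in dehydrated against 1.4 to 5.2 in control rats. In females its control signals were low, and it passed the filter on level through the dehydrated arrays. Such a filter can favour a gene that is high in 1 group, and the Plaur call without a filter was not examined. The female count of this list includes Plaur. Hmox1, heme oxygenase 1, rose in males by 0.72 ± 0.10 (adjusted p = 0.000245). The falls in males were the gap junction gene Gja1 at -0.23 ± 0.06 (adjusted p = 0.011) and the intermediate filament gene Vim at -0.60 ± 0.18 (adjusted p = 0.0324). No gene of this list passed the test of the difference between the sets in limma, where 4 of 17 had an unadjusted p under 0.05, against 10% of all probe sets. In females Hmox1 was at 0.39 ± 0.16 (adjusted p = 0.212), Gja1 at -0.02 ± 0.12 (adjusted p = 0.952) and Vim at -0.22 ± 0.11 (adjusted p = 0.285).

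The female calls of these 4 lists rest on leaving out array 5 of the dehydrated females. With it included limma called no gene of any list, and an unadjusted p under 0.05 was found for 4 of 21 kinases and factors, 0 of 7 bZIP factors, 4 of 20 immediate early genes and 1 of 16 targets, against 8.21% of all probe sets. Elk3 (137.5) and Nr4a1 (74.3) were above all female controls on array 5, and Dusp6 (410) was above every female array. With it their log2 fold changes were 0.62 ± 0.13 (adjusted p = 0.225), 0.84 ± 0.18 (adjusted p = 0.225) and 1.30 ± 0.26 (adjusted p = 0.191). Crem (88.5), Th (63.1), Pdyn (101.5) and Plaur (1.86) were below all female controls on it. Crem then stood at 0.48 ± 0.25 (adjusted p = 0.655), Th at 1.46 ± 0.49 (adjusted p = 0.453) and Pdyn at -0.16 ± 0.83 (adjusted p = 0.976), and Plaur fell below the filter.

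The genes whose pattern was most like that of Fos and Fosl1 were found by the root mean square difference in log2 deviation from the control mean of the own set, over 18 arrays and 9505 genes above the median level. For Fos they were Arhgdib at 0.339, then Rnf138l1 at 0.355, the secreted peptide precursor Vgf at 0.364, the membrane-bound bZIP factor Creb3l1 at 0.447 and Th at 0.472, while the median gene stood at 1.42. For Fosl1 they were Rasd1, a small GTPase, at 0.292, Arhgdib at 0.318, Rnf138l1 at 0.354, Creb3l1 at 0.361 and Caprin2, an RNA-binding protein, at 0.379, with a median of 1.28. Fos and Fosl1 had Arhgdib, Rnf138l1 and Creb3l1 in common among these. The measure counts the size of the rise, so genes that did not respond stand far from Fos and Fosl1 by construction, the median gene included. The points share arrays and groups, so this is a description.

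**Figure D4:**
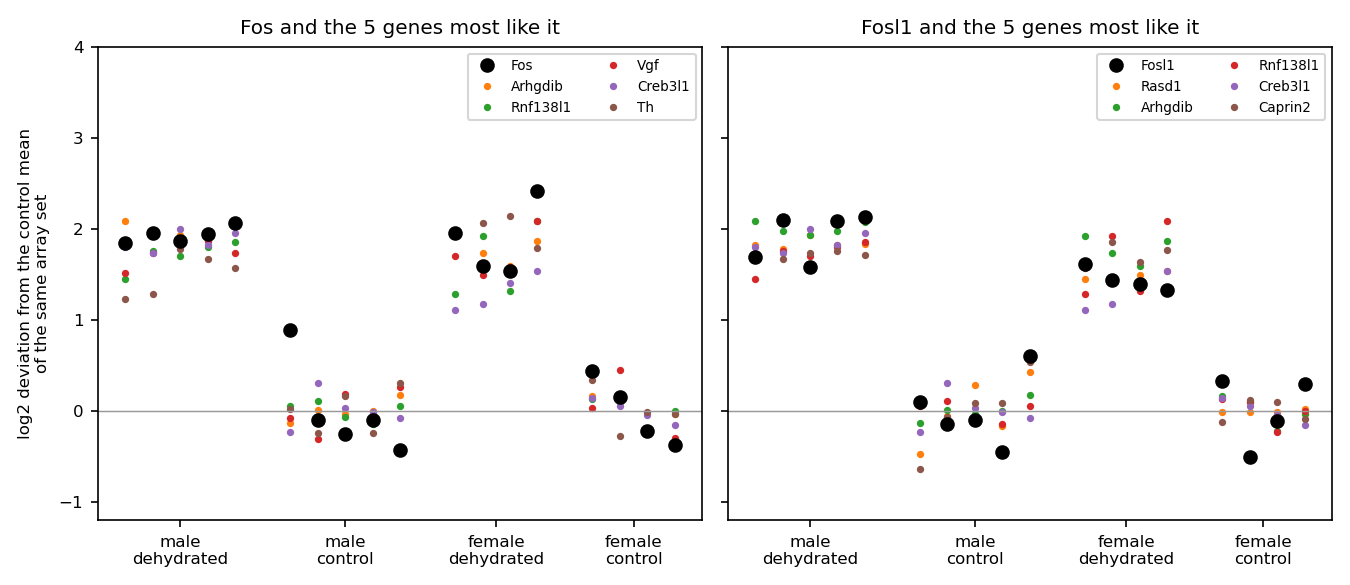
Log2 deviation from the control mean of the own set (y axis) on each of the 18 arrays (x axis, by group) for Fos and Fosl1 (large black points) and the 5 genes most like each (small coloured points). The dehydrated arrays lie between about 1 and 2.5 and control arrays between -0.64 and 0.61, except for Fos on control male array 1 at 0.89.

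Levels of several cell type markers moved with dehydration too. The mean log2 value of 10 magnocellular markers was 0.28 higher in dehydrated males (exact permutation p = 0.0317) and 0.35 higher in dehydrated females (exact permutation p = 0.0286, the smallest that 4 against 4 arrays allow). Summed, these markers gave 13472 to 16290.4 in dehydrated against 11450 to 13782 in control males, and 12055 to 19995 in dehydrated against 9861 to 11259 in control females. By gene, 4 of 9 tested rose and 1 fell in males, against 8.32% and 9.38% of all probe sets. In females 2 of 9 rose, against 1.77% of all probe sets, and none was called with array 5 included (limma, with an unadjusted p under 0.05 in 0 of 9). With that array left out, Caprin2 rose most of the list in both sets, at 1.72 in males and 1.71 in females, which raised the means. The median log2 fold change of the 9 tested was 0.12 in males and 0.15 in females. Avp and Oxt did not pass in either set.

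The 14 markers of mural cells and meninges were lower by 0.87 in dehydrated males (exact permutation p = 0.0238) and by 0.46 in dehydrated females (exact permutation p = 0.0286). Their summed signal was 2729 to 6189 in dehydrated against 4823 to 10467 in control males, and 2510.2 to 2949 in dehydrated against 3431 to 4977 in control females. By gene, limma called 12 of 14 lower and 1 higher in males, against 9.38% and 8.32% of all probe sets. In females 4 of 14 were called lower and none higher, against 1.19% and 1.77% of all probe sets. With array 5 included none was called in females. Mean log2 values of the other marker lists differed by -0.16 in males and -0.67 in females for oligodendrocytes, by -0.16 and -0.17 for astrocytes, by -0.36 and -0.30 for microglia, by -0.55 and -0.59 for blood, by -0.43 and 0.01 for choroid plexus and ependyma, and by -0.09 and -0.02 for endothelium. The exact permutation p was 0.0159 in males and 0.0286 in females for the 3 blood markers, and 0.0476 and 0.114 for microglia. No other list of these had an exact permutation p under 0.05. Summed blood markers gave 770 to 1108 in dehydrated against 1607 to 2158 in control males, and overlapped in females. After adjustment over the measures of a set the lowest p was 0.0873 in males and 0.105 in females. The 3' to 5' signal ratio of the beta-actin control probe sets, a sign of RNA integrity, was 6.83 to 9.0 in dehydrated and 5.23 to 7.12 in control males (exact permutation p = 0.0238). In females it was 2.56 to 5.30 in dehydrated and 2.44 to 13.3 in control rats (exact permutation p = 0.629). The 13.3 came from control array 2, whose GAPDH ratio was 4.12, against 1.02 to 1.05 on the other female controls. Without that array the female log2 fold change in limma was 1.93 ± 0.23 for Fos (adjusted p = 0.00113). For Fosl1 it was then 1.27 ± 0.17 (adjusted p = 0.00216), and for Jun 1389528_s_at 0.42 ± 0.12 (adjusted p = 0.0792). On the log2 scale the mean GAPDH ratio differed by 0.04 in males (exact permutation p = 0.817) and -0.22 in females (exact permutation p = 1), and the mean hexokinase ratio by -0.85 in males (exact permutation p = 0.135) and -0.53 in females (exact permutation p = 0.771). The part of cell makeup and RNA integrity in the Fos and Fosl1 results was not tested.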

How the data were processed

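The authors deposited linear intensity values for each probe set, from GCOS 1.2 (male set) and MAS5 (female set) per the submitters' processing notes. Background settings are not given in the sources used here. Arrays were scaled to a common trimmed mean of 500 (2% off either end), and log2(signal + 32) was taken. After removal of 57 control probe sets, those with a mean above the 30th percentile were tested in limma 3.58.1 under R 4.3.3 (lmFit, eBayes with trend), with Benjamini-Hochberg adjustment over all kept probe sets, separately per set. The difference between the sets was fitted on 18 arrays. Signals printed are the deposited ones. In lists, the probe set with the highest mean stood for its gene. Of 31099 probe sets, 20832 had 1 symbol, 436 several and 9831 none. The 5 lactating samples had no values in the table used. No 2 arrays were identical.

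Named genes were all members, up to 4 rising and 2 falling genes per list and set with the smallest adjusted p, the 5 genes most like Fos and Fosl1, and Avp and Oxt; Egr1 was added after its values were seen. The members and lists were chosen with earlier results of these data known. The script was tested on simulated data. Alternatives covered normalization, offset, filter, array weights, variance model, left-out arrays, a joint fit and exact permutation tests.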

Additional observations from a re-analysis of the deposited data

Results flagged for a closer look

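In 8 of 120 groups of 4 or 5 arrays, 1 array lay far from the others by Dixon's criterion, which chance alone meets in about 1 of 20 groups. For Fos (1375043_at) it was control male array 1 at 143.7, against 69.6 for the next control. Without that array the male log2 fold change of Fos was 2.16 ± 0.09 in limma (adjusted p = 2.64e-09), against 1.94 ± 0.18 with it, and over all alternatives the male adjusted p ran from 2.64e-09 to 0.000324. The same array stood apart for Nr4a3 at 39.0, against 24.0 for the next. Control male array 1 held the highest control value for 12 of 22 other immediate early genes and 5 of 7 member probe sets tested, against 25.1% of all probe sets tested. These counts include Fos and Nr4a3, by which the array was picked, and several probe sets of Jun. Probe sets on 1 array are not independent, so the counts are a description. Of the remaining 6 groups, 4 were of dehydrated arrays: Ier5 at 148.0 on male array 3, Myc at 79.0 on female array 4, and Nr4a3 at 29.96 and Rps6ka5 at 152.2 on female array 3. The last 2 were of control arrays, Maf at 202.8 on male array 5 and Nr4a1 at 44.5 on female array 4.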

How the results depend on the processing

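Of 444 values of member probe sets in alternative limma fits, 413 kept their direction and their side of the adjusted threshold, 17 came to pass it, 2 no longer passed and 12 changed sign. Those that no longer passed were Fos and Fosl1 in females with array 5 included (log2 fold changes 1.42 and 1.36). Exact permutation tests, whose p is unadjusted, gave a p under 0.05 in 8 of 14. The sign changed for Junb in males, at 0.0262 under quantile normalization, 0.0404 with centring on the median, 0.046 with array weights, and -0.159 to 0.151 over the fits without 1 array (above 0 in 3 of them), and for the Fos difference between the sets, at -0.0402 under quantile normalization and -0.0888 to 0.279 over the fits without 1 array (below 0 in 5 of them). Jun and Jund crossed the threshold under several settings: in the joint fit of all 4 groups, for example, the female adjusted p was 0.00489 (1369788_s_at), 0.0088 (1389528_s_at) and 0.00474 (Jund 1393138_at).

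The count of 643 called probe sets in females became 1709 with array weights, 290 without a mean-variance trend, 1 with array 5, 2322 in the joint fit and 210 to 886 without 1 array. It was 256, 886, 210 and 346 without control arrays 1, 2, 3 and 4, and 222, 246 and 334 without dehydrated arrays 1, 2 and 4. In males 3846 became 2270 in the joint fit and 2839 to 4149 without 1 array. For the difference, 7 became 20 with quantile normalization, 12 with median centring, 11 with offset 100, 2 with no filter, 114 with array weights, 0 with array 5, and 1 to 55 without 1 array. Median centring moved the split of higher and lower calls to 2690 and 1101 from 1808 and 2038 in males, and to 348 and 114 from 384 and 259 in females. The cause was not tested. No paired analysis was possible because the groups compared share no replicate numbers in the labels, and the lactating samples, which share numbers with the female controls, had no values here. Arrays of 4 or 5 pools per group and signals below the filter limit what can be seen of Fosb, Fosl2 and Junb.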
